A study of Mus musculus with 5 samples.

Results

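The genes described here are the renal carriers for sugars, phosphate and organic ions: every gene of the deposited table in the families Slc5a, Slc13a, Slc22a, Slc34a and Slco, taken by its symbol. They number 56 of 18044 genes, with 12 in Slc5a, 5 in Slc13a, 25 in Slc22a, 3 in Slc34a and 11 in Slco. A few fit the name loosely, since Slc13a2os is an antisense RNA, Slc22a13b-ps is a pseudogene, and Slc5a5, Slc5a6 and Slc5a7 carry iodide, vitamins and choline. All 56 were found in the GENCODE M21 annotation of mm10, from which positions and exon lengths below are taken. The tissue was the wild-type C57BL/6 mouse pelvis-kidney junction at E18.5, where the renal pelvis joins the kidney. Junctions of all embryos were pooled, digested with collagenase and stained for the channel HCN3, and cells were sorted into HCN3-positive cells, which the submitters call urinary tract pacemaker cells, and HCN3-negative cells. RNA was sequenced in 2 libraries labelled HCN3-positive and 3 labelled HCN3-negative, and the design asks what sets the positive cells apart. The labels do not say that replicates are separate pools, and p-values therefore reflect the spread among 5 libraries, which may be technical.

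The proximal tubule takes back filtered glucose, phosphate, sulfate and organic acids through sodium-coupled carriers in its apical membrane. Organic anion and cation carriers of the Slc22 family bring drugs and metabolites into the same cells, mostly from the blood side. These genes are classic signs of proximal tubule differentiation, while other members, such as the prostaglandin carrier Slco2a1 or the inositol carrier Slc5a3, act in many cell types. In bulk RNA, fewer cells of a type and less RNA per cell cannot be told apart.

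The libraries held from 24588864 to 39034478 reads in genes. Levels are normalized read counts, that is, reads divided by the size factor of the library. Hcn3 (chromosome 3, 89146074 to 89160196) had 0 and 60 reads in positive 1 and positive 2 by label, and 116, 29 and 45 in negative 1, negative 2 and negative 3. As normalized counts these were 0 and 44.5 against 103, 32.2 and 41.9, and the labels overlapped. Its transcript thus did not follow the labels: positive 1 was the lowest library and negative 1 the highest. The fold in the authors' deposited table equals, within a relative tolerance of 0.01 in 18047 of 18047 rows, the ratio of means after dividing the libraries as positive 1 and negative 2 (the first set) against positive 2, negative 1 and negative 3 (the second set). That division crosses the labels, and directions by label below rest on the titles alone.

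Transporter genes were mostly lowest in the library labelled positive 1 and highest in that labelled negative 2. Of the 56 genes, 50 had a mean normalized count of at least 5 over the 5 libraries and were fitted. Of these 50, 32 (64.0%) had their highest level in negative 2, against 19.5% of all 16579 genes fitted, and 26 (52.0%) had their single lowest level in positive 1, against 28.7%. In positive 1, 15 of the 50 had 0 reads, against 0, 6, 2 and 1 in positive 2, negative 1, negative 2 and negative 3. Of all 16579 genes, 1381 had 0 reads in positive 1, against 153, 628, 619 and 302 in the same libraries. Positive 1 also had the fewest reads in genes, at 24588864. The mean log2 level of the 50 genes lay at -1.49 and -0.22 in positive 1 and 2, relative to the mean of the 5 libraries, and at -0.02, 1.23 and 0.50 in negative 1, 2 and 3. The extremes of the gene family were therefore the libraries that the authors' table puts in 1 set.

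**Figure D1:**
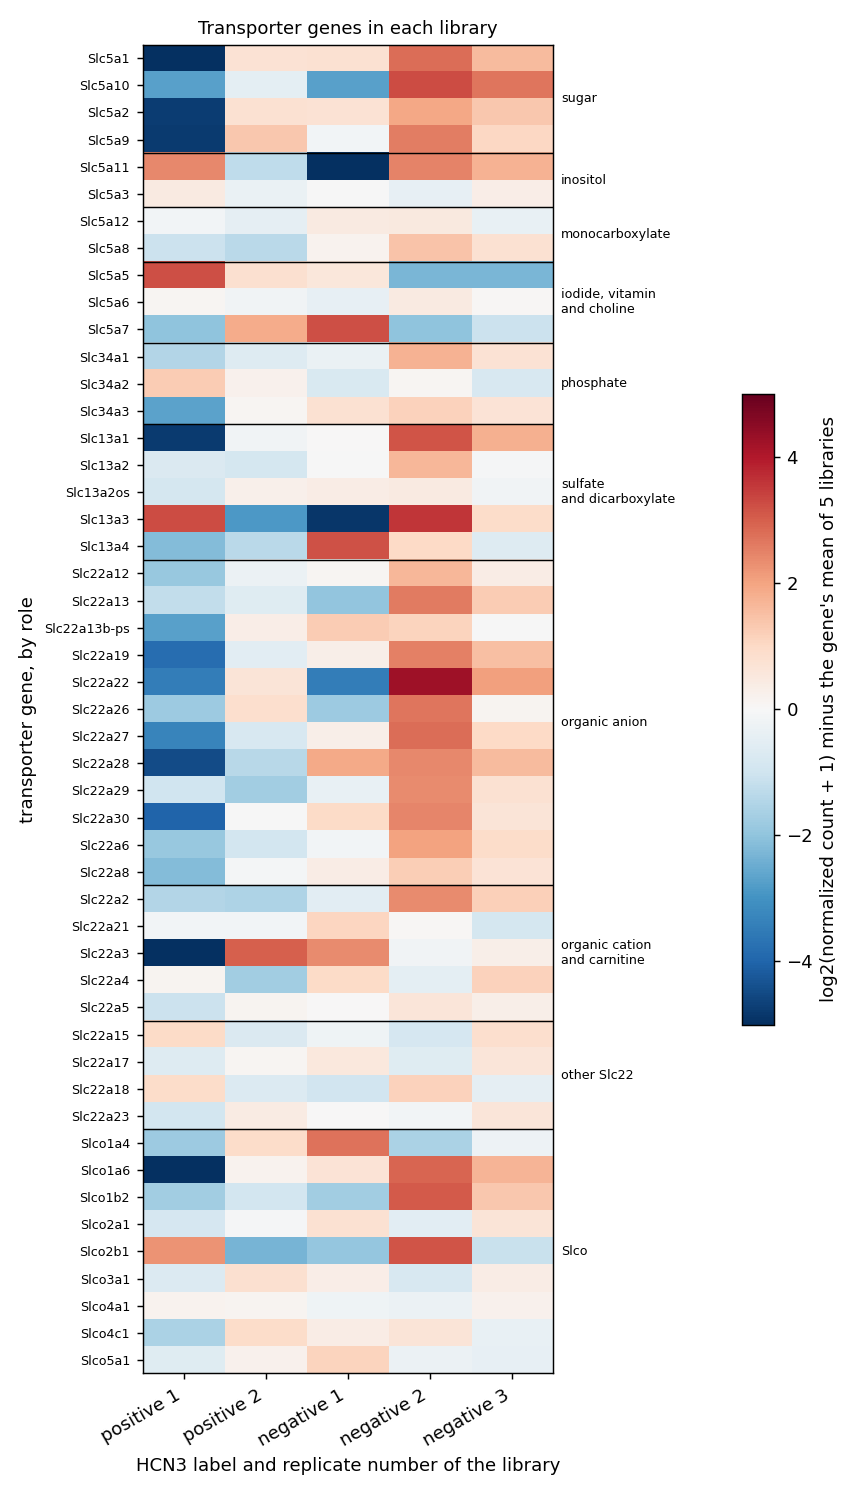
Log2(normalized count + 1) of 49 of the 50 fitted transporter genes (rows, by role) in the 5 libraries (columns), minus the mean of each gene; red marks higher and blue lower levels, and colours stop at 5 units on either side. Negative 2 is the highest library for 32 of the 50, and the organic anion carriers run from -2.65 on average in positive 1 to 2.34 in negative 2.

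By label, none of the 50 fitted genes passed the limma test at an adjusted p of 0.05, and 0.0% of all genes did. At an unadjusted limma p under 0.05 stood 6 of the 50, against 0.947% of all genes; edgeR and DESeq2 also called 0 of the 50. The fitted log2 difference, labelled positive minus labelled negative, was below 0 for 41 and above 0 for 9, with a median of -1.44, against 8708 and 7871 and a median of -0.03 over all genes. Without the library labelled positive 1 the median was -0.70. Both libraries labelled positive lay below all 3 labelled negative for 18 of the 50, against 5.44% of all genes, and above them for 2, against 5.34%. The limma adjusted p was 1.00 for each of the 50 genes. No member therefore differed by label beyond the spread between libraries once all genes were counted, and the values below describe levels.

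**Figure D2:**
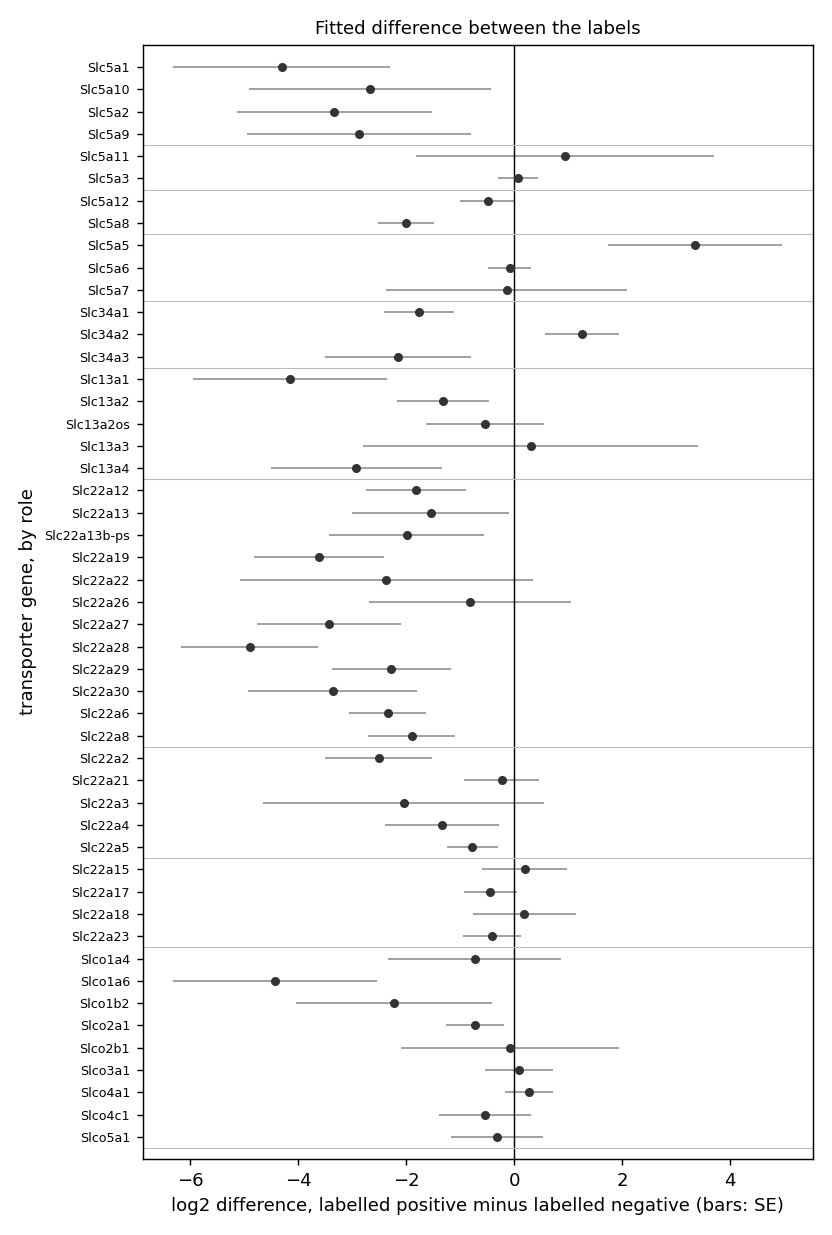
Fitted difference in log2(normalized count + 1), labelled positive minus labelled negative (horizontal axis), for 49 of the 50 fitted transporter genes (vertical axis, by role); bars are standard errors. Most points lie left of 0, as do 41 of the 50 genes, and long bars belong to genes that differ between the libraries of 1 label, such as Slc13a3 at 0.31 with an SE of 3.10.

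Among the phosphate carriers, Slc34a1 (chromosome 13, 55398187 to 55415592), the main sodium-phosphate carrier of the proximal brush border, had the highest mean level per length of the 56 genes, although Slco2b1 and Slc5a3 exceeded it in positive 1, at 1347 and 400.3 against 290 normalized counts per kilobase of exon. Its normalized counts were 1355 and 2373 in positive 1 and 2, and 2982, 12314 and 6098 in negative 1, 2 and 3. The groups did not overlap, but the spread within negative, from 2982 to 12314, was wider than the gap between the groups. The means were 1864 ± 720 (SD, n = 2) and 7131 ± 4751 (SD, n = 3), and the log2 difference was -1.76 (SE 0.65), or -1.25 without negative 2. Slc34a2 (chromosome 5, 53038081 to 53071664), known from lung and gut epithelium, was higher under the positive label, at 372 and 180 against 89.1, 163 and 86.5. Slc34a3, a further renal phosphate carrier, stayed between 0 and 13.3.

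A promoter is shown for the 3 carriers of phosphate and organic anions that shared the order of levels of Slc34a1 and hold the letters GTTAAT, which are part of the site of HNF1, a transcription factor of the proximal tubule. Each line gives the 250 bases before the transcript start in RefSeq (GRCm38.p6), 5′ to 3′ on the strand of the gene, with matches on either strand in capitals. They lie at chr13:55399398-55399647 (plus strand) for Slc34a1, chr19:8617746-8617995 (plus strand) for Slc22a6 and chr19:8592932-8593181 (plus strand) for Slc22a8, and those of Slc34a1 and Slc22a8 fall inside the longer GENCODE gene models.
Slc34a1: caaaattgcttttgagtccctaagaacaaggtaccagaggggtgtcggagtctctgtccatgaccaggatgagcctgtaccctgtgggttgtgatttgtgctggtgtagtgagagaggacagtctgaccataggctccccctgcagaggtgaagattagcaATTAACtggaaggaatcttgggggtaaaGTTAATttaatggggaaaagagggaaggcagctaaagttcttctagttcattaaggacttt
Slc22a6: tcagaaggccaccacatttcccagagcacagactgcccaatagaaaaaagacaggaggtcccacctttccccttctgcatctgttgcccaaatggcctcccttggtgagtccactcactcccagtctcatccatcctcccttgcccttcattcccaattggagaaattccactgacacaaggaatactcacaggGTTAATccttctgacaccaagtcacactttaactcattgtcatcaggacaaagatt
Slc22a8: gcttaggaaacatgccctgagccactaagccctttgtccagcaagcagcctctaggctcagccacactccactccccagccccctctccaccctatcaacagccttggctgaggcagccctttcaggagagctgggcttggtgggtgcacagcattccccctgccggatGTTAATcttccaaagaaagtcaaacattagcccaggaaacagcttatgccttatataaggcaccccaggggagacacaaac

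In Slc34a1 the matches begin 89 and 61 bases before the start, in Slc22a6 at 56 and in Slc22a8 at 81. The promoter table of RefSeq held 46 of the 56 genes in 53 windows of 300 bases each, from 250 before to 50 after the start. GTTAAT stood on either strand in 7 of these 53 windows (13.2%), against 7.10% of all 32851 windows. The other genes with it were Slc22a29, Slc5a10, Slc5a4a and Slco1b2. Slc22a12, Slc22a19, Slc22a27, Slc5a1 and Slco1a6 ranked the libraries in the order of Slc34a1, yet their windows lacked GTTAAT. A link between the letters and the order of levels was not tested. Of 2 spellings of the HNF4 site, which do not overlap GTTAAT, CAAAGTCCA stood in 0 and CAAAGGTCA in 1 of the 53 windows, that of Slc5a11, against 0.475% and 0.478% of all windows. A match describes letters and is no measure of binding.

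Of the sodium-glucose carriers, Slc5a1 (SGLT1; chromosome 5, 33104219 to 33162870), the high-affinity glucose carrier, was at 2.82 and 378 under the positive label, and at 387, 1593 and 682 under the negative label. In positive 1 that was 2 reads, where Slc34a1 had 961. As a share of the Slc34a1 count, Slc5a1 came to 0.208% in positive 1 and to between 11.2% and 15.9% in the other 4 libraries. So positive 1 stood apart for Slc5a1, while positive 2 lay beside negative 1. Slc5a2 (SGLT2), the low-affinity carrier that takes up most glucose in the adult kidney, was at 0 and 44.5 against 43.7, 101 and 67.9, and these groups overlapped. The mannose and fructose carriers Slc5a9 and Slc5a10 also had 0 reads in positive 1 and were highest in negative 2, at 162 and 62.2, and Slc5a10 had 0 reads in negative 1 as well. Slc5a4a, a relative of the glucose carriers, had a mean under 5 and was not fitted.

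The sodium-coupled monocarboxylate carriers take up lactate and related acids. Slc5a8 (chromosome 10, 88885992 to 88929515) was at 202 and 165 under the positive label and at 478, 1148 and 724 under the negative label, with no overlap. Its log2 difference of -2.00 (SE 0.52) had an unadjusted limma p of 0.0108 and ranged from -2.31 to -1.68 as single libraries were left out. Slc5a12, its low-affinity counterpart, overlapped, at 292 and 232 against 439, 454 and 247. Relative to Slc34a1, Slc5a12 was most abundant in positive 1, at 21.5%, and lay at 9.78%, 14.7%, 3.69% and 4.06% in positive 2 and negative 1, 2 and 3. Slc5a12 thus varied 5.84-fold relative to Slc34a1 across the libraries, against 2.30-fold for Slc5a8. The cause was not tested.

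Of the inositol carriers, Slc5a3 (chromosome 16, 92058322 to 92087473), which loads cells with inositol under osmotic stress, was among the steadiest genes, at 4368 and 2546 against 3200, 2444 and 4112. Its log2 difference was 0.07 (SE 0.37). Slc5a11, the other sodium-inositol carrier, was at 213 and 15.6 against 0, 225 and 132. High and low values of Slc5a11 occurred under both labels. Slc5a6, the sodium-coupled carrier of biotin and pantothenate, was also even, at 753 and 616 against 535, 958 and 734. The iodide carrier Slc5a5 reached 45.1 in positive 1 and at most 7.42 elsewhere, and the choline carrier Slc5a7 reached 36.5 in negative 1.

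Of the organic anion carriers, 12 of 12 fitted were below 0, with a median log2 difference of -2.31. In 8 of the 12, both libraries labelled positive lay below all 3 labelled negative, against 5.44% of all genes. Slc22a6 (OAT1; chromosome 19, 8618039 to 8628299), which exchanges organic anions for dicarboxylates at the basolateral membrane, was at 265 and 516 against 898, 3937 and 1859. Its log2 difference was -2.34 (SE 0.71), from -2.87 to -1.80 as single libraries were left out. The ratio of Slc22a6 to Slc34a1 varied 1.63-fold, at 19.6% and 21.7% under the positive label and 30.1%, 32.0% and 30.5% under the negative label. Both genes thus ranked the 5 libraries in the same order. Slc22a8 (OAT3; chromosome 19, 8591254 to 8611835), its basolateral partner, was at 40.9 and 177 against 247, 442 and 301. Slc22a12 (URAT1), the apical urate exchanger, was at 21.1 and 66.0 against 87.3, 261 and 106. In both, positive 1 was the lowest library and negative 2 the highest. The apical exchanger Slc22a13 (OAT10) was at 55.0 and 84.6 against 32.1, 785 and 313, so negative 1 lay below both libraries labelled positive. The gene model of Slc22a14 spans that of Slc22a13, so its reads are uncertain. The pseudogene Slc22a13b-ps, a copy related to Slc22a13, stayed at or below 15.1.

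A cluster of close Slc22 relatives on mouse chromosome 19 includes Slc22a28, the gene with the lowest fitted difference of the 50, and reads may be shared between these copies. Slc22a19 (OAT5; 7673061 to 7711310) was at 16.9 and 173 against 306, 1453 and 705, with a log2 difference of -3.61 (SE 1.21). Slc22a28 (8062209 to 8131982) was at 0 and 7.42 against 81.1, 117 and 66.0. That gave a log2 difference of -4.90 (SE 1.26), the smallest unadjusted limma p of the 50 genes (0.0106), and -3.36 without positive 1. Slc22a27 (7864388 to 7966027) was at 1.41 and 12.6 against 28.5, 165 and 46.5. All 3 were separated by label. Without positive 1 the log2 difference was -1.97 for Slc22a19 and -2.18 for Slc22a27, where that of Slc22a27 with all libraries was -3.43. Slc22a29 and Slc22a30 were likewise lower in both libraries labelled positive, with at most 24.0 and 14.8 there against at least 37.4 and 24.2. Slc22a22, a renal prostaglandin carrier, reached 210 in negative 2 and had 0 reads in positive 1 and negative 1. Slc22a26, of the same cluster on chromosome 19, stayed at or below 21.1 with overlapping labels. Slc22a7 (OAT2) and Slc22a20 (OAT6) had means under 5 and were not fitted.

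Of the organic cation carriers, Slc22a2 (OCT2; chromosome 17, 12584132 to 12628488), the basolateral entry step for cations in the proximal tubule, was at 47.9 and 45.3 against 92.7, 687 and 306. Its log2 difference was -2.51 (SE 0.99), and the groups did not overlap. Slc22a3 (OCT3), found in stroma and muscle as well as epithelium, had another order, at 0 and 335 against 217, 36.6 and 51.2. The carnitine carriers were flatter. Slc22a5 (OCTN2), which recovers carnitine from urine, was at 462 and 1089 against 1004, 1512 and 1188, and its relative Slc22a21 at 312 and 309 against 731, 357 and 186. Slc22a4 (OCTN1), which carries ergothioneine, lay between 12.6 and 99.5 with overlapping labels.

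The sulfate and dicarboxylate carriers were of low abundance. Slc13a2 (chromosome 11, 78397087 to 78422217), which takes up citrate at the apical membrane, was at 52.2 and 46.7 against 85.5, 273 and 81.9. The groups did not overlap, though 2 of the libraries labelled negative lay closer to those labelled positive than to negative 2. Its antisense RNA Slc13a2os overlaps it and was at 4.23 to 12.2; no source says that strand was kept, and reads of the pair cannot then be told apart. Slc13a1, the renal sulfate carrier, had 0 and 23.7 against 27.6, 249 and 94.9. Slc13a3 (chromosome 2, 165405028 to 165473230), the basolateral dicarboxylate carrier, was at 279 and 2.97 against 0, 350 and 54.9, and so was high in 1 library of each label. The sulfate carrier Slc13a4 reached 39.2, in negative 1.

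**Figure D3:**
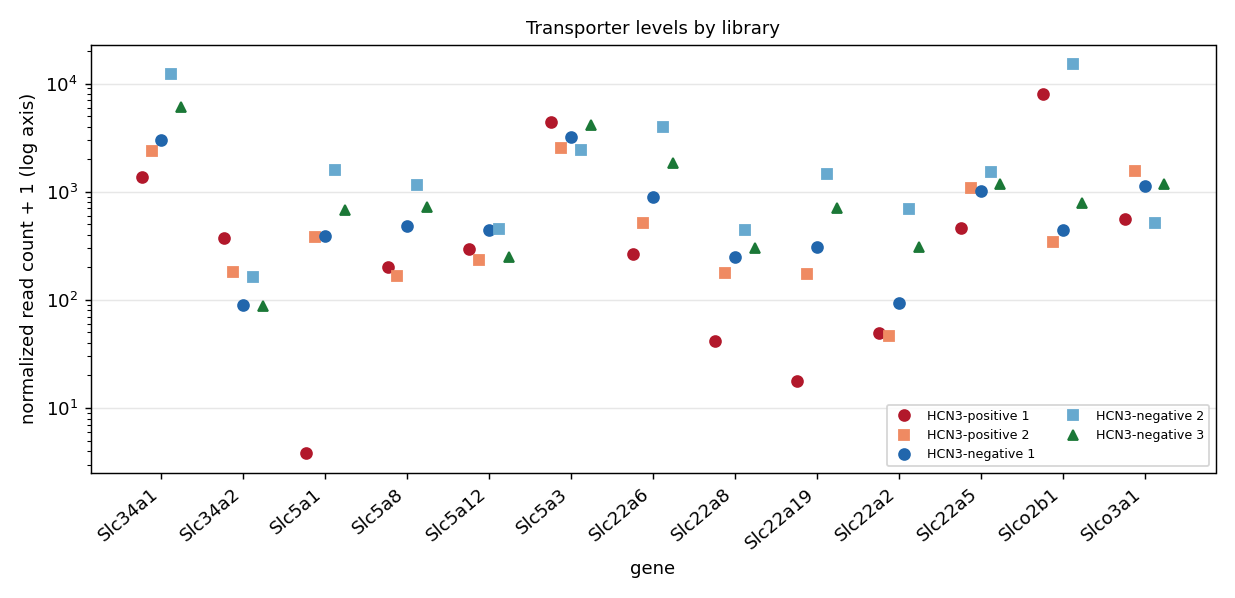
Normalized read count plus 1 (log axis, vertical) of 13 transporter genes (horizontal axis) in the 5 libraries; each point is 1 library, red tones labelled HCN3-positive, blue and green labelled HCN3-negative. Slc34a1, Slc5a1, Slc5a8, Slc22a6, Slc22a8, Slc22a19 and Slc22a2 are lower in both libraries labelled positive, and Slc34a2 is higher in both. Slc5a3 runs from 2444 to 4368 with both labels mixed, and Slco2b1 is high at 8023 and 15124 in 1 library of each label.

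Other genes of the proximal tubule stood beside these values. Of 17 fitted proximal tubule genes outside the families, 16 were below 0 by label (median -1.59) and 0 passed in limma. Their mean log2 level lay at -1.55 and -0.73 in positive 1 and 2, and at 0.12, 1.48 and 0.68 in negative 1, 2 and 3, which is the order of the transporter genes. The gluconeogenic enzyme Fbp1 was at 374 and 526 against 1580, 6009 and 3826. Of 32 partner carriers, such as the apical urate and phosphate carriers Slc17a1 and Slc17a3, 20 were below 0 (median -0.66) and 0 passed. Of 18 regulators and scaffolds, 11 were below 0 (median -0.25) and 0 passed. Cyp27b1, which makes active vitamin D in the proximal tubule, was at 330 and 147 against 827, 2202 and 1330, and the scaffold Pdzk1, which anchors several of the carriers, at 1238 and 2957 against 2779, 9316 and 4512.

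Lists of other cells and states gave these values by label. The 17 immediate early and dissociation response genes were all below 0 (median -1.87), with summed counts of 62240 and 20750 under the positive label and from 96831 to 181904 under the negative label. Of 15 collecting duct genes 14 were above 0 (median 1.14), with summed counts of 106514 and 46812 against 17869 to 38315. For the loop of Henle and the distal tubule, 11 of 13 genes were above 0 (median 0.52), with sums of 45723 and 25298 against 19510 to 25661, which overlap. In each of these lists 0 genes passed in limma, and 0 members were at 0 reads in any library. The part of these lists in the levels of the transporter genes was not tested.

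Between the 2 sets of the authors' own comparison, the transporter with the smallest adjusted p was Slco2b1. In the authors' deposited table, a total of 3 of 56 genes had an adjusted p under 0.05 and were higher in the first set, against 8.1% of all genes, and 1 was higher in the second set, against 6.09%. Slco2b1 (chromosome 7, 99657804 to 99711340), which carries steroid sulfates and thyroid hormone, was at 8023 in positive 1 and 15124 in negative 2, against 338, 441 and 781 in positive 2, negative 1 and negative 3. The set means were 11574 and 520, a ratio of 22.2, and the authors' deposited table gives an adjusted p of 1.83e-06. Leaving out single libraries, the ratio of means ran from 15.4 to 29.7. Per kilobase of exon, Slco2b1 averaged 829 normalized counts, next to 1074 for Slc34a1 and 404 for Slc22a17, and the libraries of the first 2 overlapped widely.

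Slc13a3 and Slc5a11 were the other genes higher in the first set. Slc13a3 had set means of 314 and 19.3, a ratio of 16.3, and an adjusted p of 7.84e-06 in the authors' deposited table. Its second-set values came from 4 reads in positive 2, 0 in negative 1 and 59 in negative 3. Without negative 3 the ratio was 212, so its size rested on that library. Slc5a11 had set means of 219 and 49.2, a ratio of 4.45, and an adjusted p of 0.0432 in the authors' deposited table. That ratio was 28.1 without negative 3, whose level of 132 lay far nearer the first set than those of positive 2 and negative 1.

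Higher in the second set was Slco3a1 (chromosome 7, 74275419 to 74554780), a broadly expressed carrier of prostaglandins, at 558 and 514 in the first set and 1559, 1130 and 1168 in the second. The authors' deposited table gives a fold of 2.40 with an adjusted p of 0.0427. Other transporters lower in both libraries of the first set did not reach 0.05 in the authors' deposited table. Slc22a17, a receptor for the iron-binding protein lipocalin-2, was at 1102 and 1118 against 1825, 2486 and 2585, with an adjusted p of 0.0908 in the authors' deposited table. The prostaglandin carrier Slco2a1 was at 414 and 513 against 706, 1234 and 1140, and the brain endothelial carrier Slco1a4 at 26.8 and 31.1 against 184, 643 and 80.9. The orphan carrier Slc22a18, by contrast, was at 249 and 295 against 81.6, 67.7 and 97.7.

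A limma fit of that division, chosen after the data were seen, called Slco2b1 higher in the first set (adjusted p of 0.00110), against 10.6% of all genes, and Slco3a1 and Slc22a17 higher in the second (adjusted p of 0.0206 and 0.0242), against 9.88%. Slc13a3 had a limma adjusted p of 0.052 at a log2 difference of -5.69 (SE 1.64), second minus first set, and was called without negative 3. Slc5a11 had a limma adjusted p of 0.184 at -4.08 (SE 1.88). Slco2b1 also passed in limma without positive 2, negative 1 or negative 3. Without positive 1 or negative 2 the first set is left with a single library, whose spread is not measured there. As each library was left out in turn, its log2 difference ran from -4.95 to -4.03, second minus first set. Slco3a1 passed only without negative 3, and Slc22a17 only without positive 2, of the 5 libraries left out. The limma fit without negative 2, in which positive 1 stands alone and is assumed to vary like the other libraries, called 9 of the 50 transporters higher in the second set, among them Slc5a1, Slc5a2, Slc13a1 and Slc22a19, against 10.1% of all genes. The sets did not overlap for 5 of the 50 genes with the first set higher, against 23.5% of all genes, and for 7 with the second higher, against 26.1%.

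**Figure D4:**
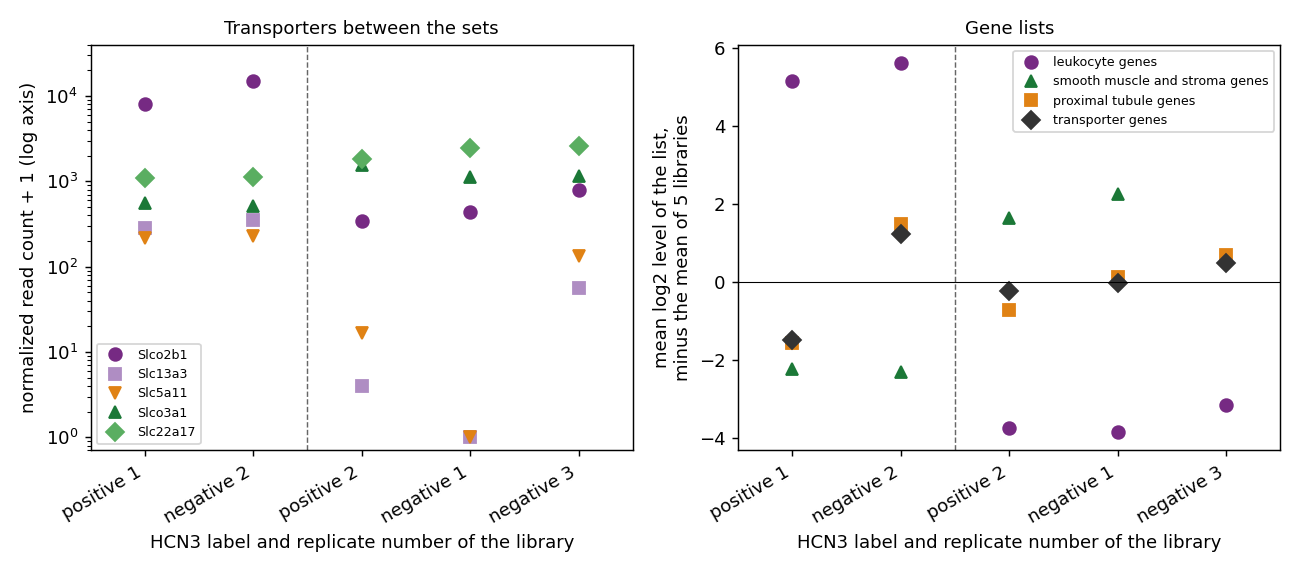
Left, normalized read count plus 1 (log axis) of 5 transporter genes in the 5 libraries, with the first set of the authors' table left of the dashed line. Right, mean log2 level of 4 gene lists minus the mean of the 5 libraries. Slco2b1 and the leukocyte genes are high in both libraries of the first set, while the transporter and proximal tubule lists are lowest and highest in these same libraries.

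Leukocyte genes were split between the sets as Slco2b1 was. The authors' deposited table calls 17 of 17 higher in the first set, against 8.1% of all genes. All 17 genes of the macrophage and leukocyte list were higher in both libraries of the first set than in each of the second, against 23.5% of all genes. Their summed counts were 551447 and 639476 in the first set, and 1662, 1498 and 2649 in positive 2, negative 1 and negative 3, where the macrophage Fc receptor gene Fcgr1 had a normalized count of 2.23, 0 and 0. The smooth muscle, stroma and pericyte list was split the other way for 16 of 16 genes, against 26.1% of all genes. Its sums were 16822 and 13878 in the first set against 115184 to 340032 in the second. The endothelial list was also split the other way, for 12 of 12 genes, with sums of 9829 and 10993 against 44663 to 164414. Of 10 podocyte genes 8, and of 9 erythroid genes 2, were lower in both libraries of the first set, against 26.1% of all genes. Podocyte sums were 15735 and 10408 in the first set, and 44615, 58544 and 355961 in positive 2, negative 1 and negative 3. Erythroid sums were 1188 and 1585 in the first set, and 3688, 966 and 60760 in the second. Both sums were thus far highest in negative 3. Called higher in the second set by the authors' deposited table were 14 of the 16 smooth muscle, stroma and pericyte genes. It so called 1 of 12 endothelial, 1 of 10 podocyte and 0 of 9 erythroid genes, against 6.09% of all genes. The part of these lists in the levels of Slco2b1, Slco3a1 and the other genes between the sets was not tested.

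Among the remaining genes, Slco4c1, the basolateral organic anion carrier of the proximal tubule, was at 123 and 697 under the positive label and 471, 575 and 287 under the negative label. Slco4a1, a thyroid hormone carrier, was the flattest of the Slco family, at 371 and 363 against 279, 265 and 379. Slco1a6, a kidney member of its family, was lower in both libraries labelled positive, at 0 and 50.4 against 72.2, 342 and 145; it belongs to a cluster of similar genes on chromosome 6, so reads may be shared with copies. Slc22a15 was at 654 and 201 against 288, 185 and 593, with overlap. Slc22a23 was at 313 and 783 against 601, 532 and 880, and so was lower in both libraries of the first set than in the second. Slco5a1 lay between 50.7 and 168, and Slco1b2, a liver carrier, at or below 26.6. The genes Slc22a14, Slco1a5 and Slco1c1 had means under 5 and were not fitted.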

How the data were processed

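RNA of sorted cells was sequenced in 5 libraries, 2 labelled HCN3-positive and 3 HCN3-negative. Per the submitters' processing notes, the mm10 build and the tools DESeq 1.18.0, HTSeq 0.6.1p2 and TopHat2 2.0.11 were used; the counting annotation was not given in the sources used here. Deposited by the authors were normalized counts (a signal, reads divided by a size factor), their mean, a fold ratio between 2 sets of libraries, its log2 and p-values. Of the deposited values, 100% gave whole reads at a tolerance of 0.01. Left out were 3 summary rows that name no gene and 2 columns of set means, which match no labelled group.

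Labels were compared with limma 3.58.1 (R 4.3.3) on log2(normalized count + 1), keeping genes whose mean reached 5, and p-values took the Benjamini-Hochberg adjustment over all genes. edgeR 4.0.16 and DESeq2 1.42.0 on recovered reads, other filters, pseudocounts and scalings, and leaving out libraries were alternatives. Named genes were those with a mean of at least 100, the 8 smallest p-values and those called in the authors' table; others were named after their values were seen. The genes and lists were chosen with earlier results of these data known. Fits of the authors' division were chosen after seeing the data. A count of 3 reads, the most that 0 reads allows, equals 2.23 to 4.23 normalized counts and covers counting error only. Values of 1 fitted transporter are not reported here, though counts over all transporters include it.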

Additional observations from a re-analysis of the deposited data

How the results depend on the processing

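By label, limma called 0 genes and DESeq2 called 10, of which 0 were transporters. The median log2 difference of the transporters ran from -1.99 to -0.70 as single libraries were left out, and was -0.70 without the library labelled positive 1. With a replicate block, in which negative 3 stands alone, 0 genes and 0 transporters passed. The median was -1.42, as it was without negative 3. The labels tie same-numbered libraries to no shared pool, so they were not taken as pairs. Deviations of same-numbered libraries correlated at -0.534 and -0.686. These values cannot settle pairing, because the 2 libraries labelled positive deviate from their mean by equal and opposite amounts. Of the 8 genes with the smallest p-values, 0 reversed under any alternative run. The authors' deposited table calls 4 of 56 transporters at an adjusted p of 0.05. Of all genes it calls 8.1% higher in the first set and 6.09% higher in the second. At 0.01 it calls 2 transporters, and no share of all genes was computed at that threshold. Of that division, fits chosen after seeing the data called 3 transporters in limma and 3 in edgeR, against 20.5% and 17.0% of all genes. With single libraries left out, limma called 1 to 10, against 7.49% to 17.1% of all genes; the cause was not tested. Genes with 0 reads in a library are limited by its depth. The long HNF4 spelling CAAAGGTCA stood in 1 transporter promoter and its core CAAAG in 36 of 53 (67.9%), against 53.9% of all windows.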
